A study of Mus musculus with 4 samples.

Results

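Axon guidance genes were taken as all genes of the deposited table whose name marks a semaphorin, ephrin, Slit, netrin, netrin-G, repulsive guidance molecule, Nogo or Nell ligand, a plexin, neuropilin, Eph, Robo, Unc5, Dcc or Nogo receptor, or a Crmp1 or Srgap effector. This gave 48 of the 5282 listed genes: 27 ligands, 19 receptors and 2 effectors. The Pdgfra-creER;SmoM2 group (SmoM2 below) had 2 samples and the wild type group (WT) had 2, all of corpus callosum with cortex from mice at postnatal day 15, and all given tamoxifen from postnatal day 5 to 7. SmoM2 encodes Smoothened locked in its active state, so that hedgehog signalling runs without a ligand. Pdgfra-creER is a recombinase that tamoxifen activates in cells expressing Pdgfra, among them oligodendrocyte precursors and fibroblasts. The WT mice were littermates. The sources used here do not say whether they carried the recombinase, nor whether each sample was 1 animal. RNA came from the whole tissue, so fewer cells of a type and less RNA per cell cannot be told apart. P-values here measure only the spread between these samples, which may be technical.

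Growing axons and migrating cells read guidance ligands through surface receptors that act on the cytoskeleton. Semaphorins signal through plexins, and most of the secreted class need a neuropilin as co-receptor, Sema3e being able to bind plexin D1 directly. Ephrins, held on the membrane by a lipid anchor (Efna) or a transmembrane segment (Efnb), bind Eph receptor tyrosine kinases. Netrins act through Dcc and Unc5 receptors, Slits through Robo receptors, and repulsive guidance molecules through neogenin. Nogo, encoded by Rtn4, is a growth inhibitor of myelin read by the Nogo receptor, Rtn4r. Many of these families also position oligodendrocyte precursors and shape synapses after axons have arrived.

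Most of the listed axon guidance genes were higher in SmoM2. Of the 48, 41 had a fold change above 1 and 7 below 1 in the authors' deposited table, whereas 53.2% of all listed genes were higher. Below, "rose" and "fell" are kept for genes that the authors' deposited table gives an adjusted p of at most 0.05 (DESeq2 is named in the submitters' notes): 28 of the 48 genes passed, or 58.3%, against 37.3% of all listed genes. By direction, 24 rose, where 21.3% of all listed genes did, and 4 fell, where 16.0% did. In the authors' deposited table the 48 genes had a median log2 fold change of 0.45, beside 0.23 over all listed genes. Every gene in the table has an unadjusted p of at most 0.05, because the authors listed only such genes. These shares therefore describe a selected table, and nothing follows from them about genes without a row. In 47 of the 48 genes the SmoM2 samples did not overlap the WT samples, and the exception was Sema4a; the same held for 84.7% of all listed genes. Both SmoM2 samples were higher in 40 genes, where 49.5% of all listed genes were so, and lower in 7, where 35.2% were. The 20 genes that did not pass, 17 higher and 3 lower, had log2 fold changes of -0.32 to 1.34 in the authors' deposited table. In limma on the deposited levels, adjusted over the genes fitted, 19 of the 24 rises passed, all but Ephb4, Sema3f, Slit3, Srgap1 and Unc5d, and of the 4 falls only Rtn4 did; 33.4% of all fitted genes passed. With 2 samples against 2, an exact two-sided permutation test of a single gene cannot give a p below 0.333. Of 84 genes in the GENCODE annotation that belong to these families, 36 had no row and were not analysed here, among them Nrp1, Dcc, Slit2, Sema3a and all 4 Robo genes.

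**Figure D1:**
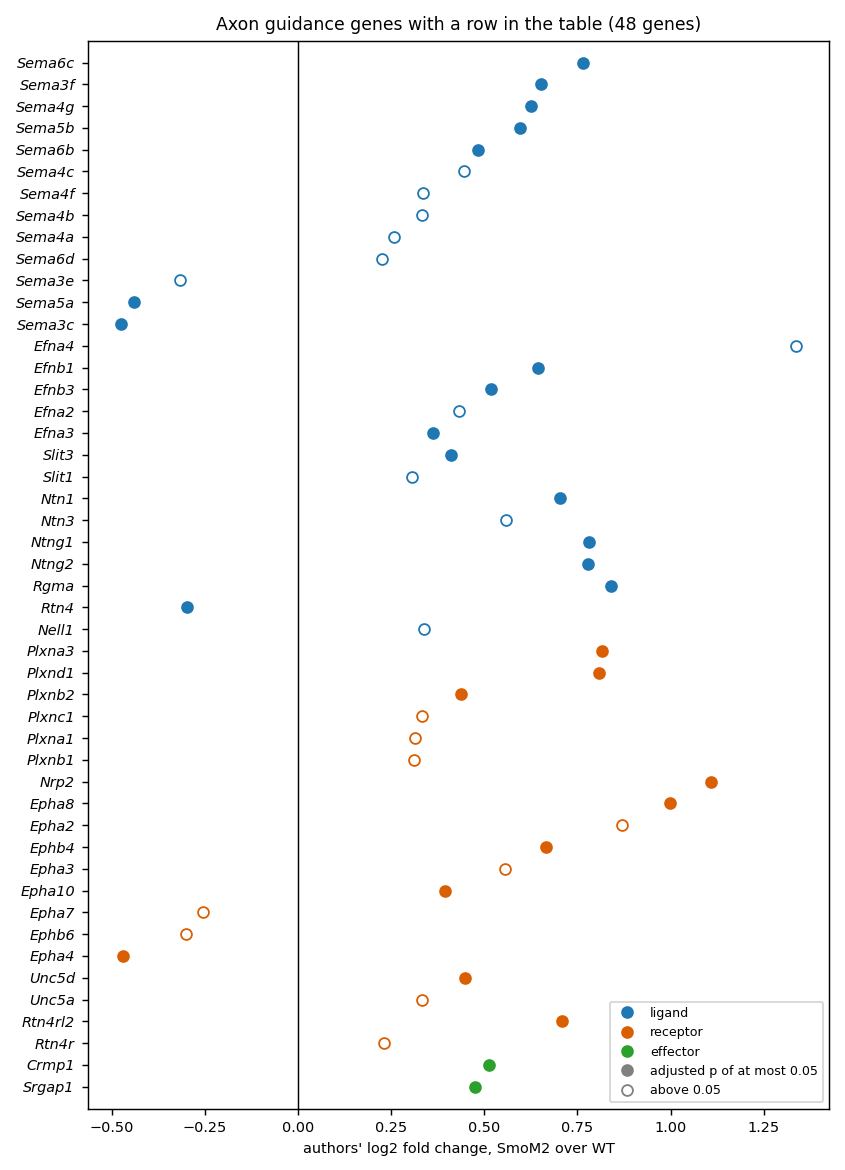
The log2 fold change of SmoM2 over WT in the authors' deposited table is plotted for all 48 axon guidance genes, grouped by family from semaphorins at the top to effectors at the bottom. Filled points passed an adjusted p of 0.05 and open points did not; 41 points lie right of 0 and 7 left of it.

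Transcript base composition moved with the direction of change, across the table and within the axon guidance genes. GC content, the share of G and C bases in a gene's longest annotated transcript, had a median of 57.3% in the axon guidance genes and 50.2% over all listed genes. Listed genes whose mean level reached 1 were split by GC content into 5 equal bins. In the lowest bin 4.69% were higher in SmoM2, in the middle bin 57.4%, and in the highest bin 97.5%. Among the axon guidance genes, 33 of the 34 with at least 55% GC were higher, the exception being Ephb6. Of the 13 below 50% GC, 7 were higher and 6 lower. Over 4800 listed genes the log2 difference of SmoM2 minus WT ran with GC content at a Spearman rho of 0.63. The difference between the replicates of a group also ran with it, at a rho of -0.16 in SmoM2 and 0.23 in WT, replicate 1 minus replicate 2. These are correlations across genes measured in the same 4 libraries, and genes are not independent replicates. The part of GC content in the changes was not tested. As a measurement beside each result, the trend of the level on GC content over the listed genes was subtracted in every sample, a step chosen after seeing the data and fitted to genes the authors had selected. The median log2 difference of the 47 axon guidance genes that could be fitted was then 0.098, beside 0.48 from the levels as deposited. Without the trend 31 of the 47 were higher, as were 48.5% of all fitted genes, and Nrp2, Ntng1 and Ephb6 passed an adjusted p of 0.05 (limma), as did 4.15% of all fitted genes.

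**Figure D2:**
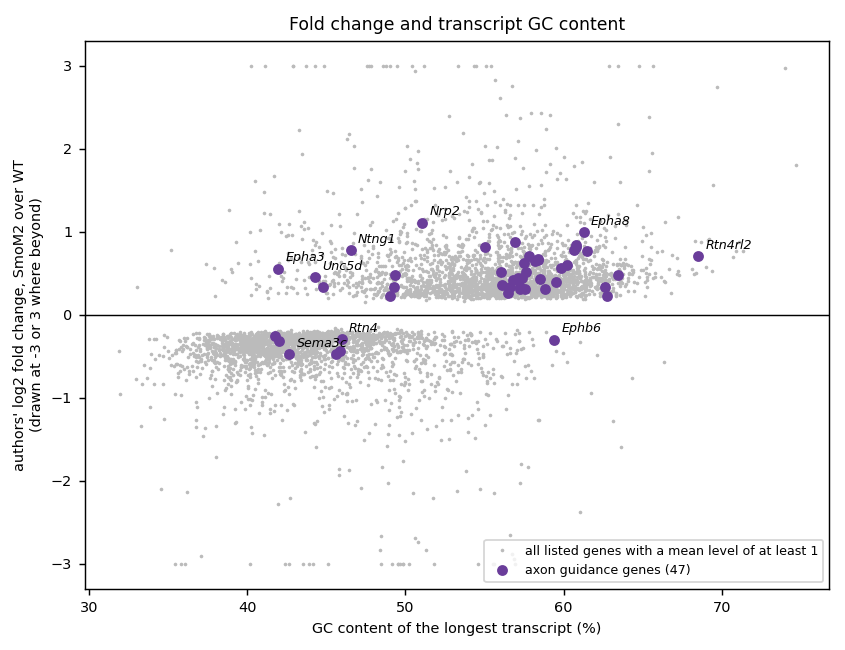
Each point is a listed gene whose mean level reached 1, placed by the GC content of its longest transcript (percent) and by its log2 fold change in the authors' deposited table; purple points are 47 axon guidance genes. Genes of low GC content lie mostly below 0 and genes of high GC content mostly above it, while Nrp2, Ntng1, Epha3, Unc5d and Ephb6 lie apart from that course.

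Promoter sequences were searched for letters that the hedgehog effector Gli binds, because the study activates Smoothened upstream of it. Of the 48 genes, 41 had an entry in the RefSeq promoter table (GRCm38.p6), some with several starts. The Gli consensus GACCACCCA, read on both strands, was in none of their 55 windows of 250 bases before the start, and in 0.225% of all 32851 windows. Its shorter core GACCACC, which the consensus contains, was in 2 windows, of Sema4b and Sema6b, and in 2.34% of all. The GC box GGGCGG was in 81.8% of the 55 windows and 32.7% of all. The median GC content was 67.6% over the 41 genes, each taken as the mean of its windows, beside 52.4% over all 32851 single windows. Promoters of genes that fell were as rich in GC as those of genes that rose, with medians of 69.0% over 4 genes and 67.0% over 19. A match is a run of letters and not a site, and no match says only that these letters are not in the window.

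The windows of 4 genes are shown 5′ to 3′ on the gene's strand, up to the GENCODE gene start: Nrp2 with the largest rise, its partner Plxna3, Sema6b for its Gli core letters, and Epha4 as a gene that fell. Capitals mark GGGCGG and GACCACC on either strand; the Gli core stands in Sema6b as its reverse complement GGTGGTC, and adjoining capitals in Nrp2 are matches that overlap.
Nrp2, chr1:62703067-62703284, plus strand: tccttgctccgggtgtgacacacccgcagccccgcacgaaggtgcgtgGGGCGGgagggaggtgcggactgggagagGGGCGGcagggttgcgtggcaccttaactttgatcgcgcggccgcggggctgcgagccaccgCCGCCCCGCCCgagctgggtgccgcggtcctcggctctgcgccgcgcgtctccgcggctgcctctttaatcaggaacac
Plxna3, chrX:74328816-74329065, plus strand: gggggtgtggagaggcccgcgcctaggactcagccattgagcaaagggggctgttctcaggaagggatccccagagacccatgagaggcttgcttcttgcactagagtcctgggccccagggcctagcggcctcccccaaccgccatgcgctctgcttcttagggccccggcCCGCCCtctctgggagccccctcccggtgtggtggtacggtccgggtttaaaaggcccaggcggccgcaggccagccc
Sema6b, chr17:56140344-56140593, minus strand: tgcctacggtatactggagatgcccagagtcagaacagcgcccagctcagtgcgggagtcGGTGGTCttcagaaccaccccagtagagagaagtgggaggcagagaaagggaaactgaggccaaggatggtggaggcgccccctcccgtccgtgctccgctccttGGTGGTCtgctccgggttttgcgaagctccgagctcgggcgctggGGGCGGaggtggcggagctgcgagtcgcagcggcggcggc
Epha4, chr1:77515089-77515338, minus strand: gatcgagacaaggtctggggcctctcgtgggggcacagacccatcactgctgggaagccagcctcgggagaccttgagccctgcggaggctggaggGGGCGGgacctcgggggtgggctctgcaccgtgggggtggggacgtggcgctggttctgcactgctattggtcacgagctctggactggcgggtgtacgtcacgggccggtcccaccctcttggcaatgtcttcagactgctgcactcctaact

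Semaphorins were the largest family, with 13 of 20 genes in the table, and they moved both ways: 5 rose, 2 fell and 6 did not pass. Expression levels below are the deposited values, which look scaled for gene length and library size, without a unit given. Log2 differences are of log2(level + 1), SmoM2 minus WT, with their SE from limma. Sema6c, a transmembrane semaphorin that signals through A-type plexins, had levels of 26.80 and 30.77 in SmoM2, against 12.67 and 15.51 in WT. Its fold of 2.04 was the highest of the family, with a log2 difference of 0.98 ± 0.15, and 0.45 ± 0.14 without the GC trend. Sema5b, a transmembrane semaphorin with thrombospondin repeats, had 14.13 and 15.02 in SmoM2, against 7.24 and 8.93 in WT. Both SmoM2 samples of these genes lay well clear of both WT samples. Sema4g had levels of 23.32 and 24.21 in SmoM2, against 14.83 and 16.35 in WT. Sema6b, the family's most abundant listed member, had 88.70 and 90.52 in SmoM2, against 58.49 and 63.22 in WT. Its log2 difference of 0.55 ± 0.09 became -0.052 ± 0.087 without the GC trend, so its direction did not hold there.

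The secreted class 3 semaphorins divided. Sema3f, a repellent that binds Nrp2, rose and had levels of 10.62 and 7.91 in SmoM2, against 6.29 and 4.83 in WT. Sema3c, which binds neuropilins and plexin D1, fell and had levels of 10.29 and 9.02 in SmoM2, against 11.20 and 14.78 in WT. In the authors' deposited table the adjusted p was 0.0237 for Sema3f and 0.0052 for Sema3c. Groups did not overlap in either gene, but the fall of Sema3c depended on WT replicate 2: without it the log2 difference was -0.20, beside -0.38 with all samples. Sema3e, the ligand of plexin D1, was lower without passing, with 5.09 and 6.07 in SmoM2 and 6.26 and 6.90 in WT. The other semaphorin that fell was Sema5a, a relative of Sema5b, with levels of 8.11 and 8.75 in SmoM2, against 10.23 and 11.68 in WT. Neither fall passed in limma on the levels, where the adjusted p was 0.114 for Sema3c and 0.104 for Sema5a. Sema3c, Sema3e and Sema5a have low GC transcripts, at 42.7%, 42.0% and 45.9%, whereas Sema3f has 58.4% and Sema5b 60.2%. Of the other 5 that did not pass, Sema4b, Sema4c, Sema4f and Sema6d were higher in both SmoM2 samples, and Sema4a overlapped at 27.71 and 30.86 in SmoM2 and 19.35 and 28.94 in WT. In the authors' deposited table these 5 had log2 fold changes between 0.22 and 0.45.

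All 5 listed ephrins of 8 were higher in SmoM2, and Efnb1, Efnb3 and Efna3 rose. Efnb3, a transmembrane ephrin that keeps corticospinal axons from crossing the midline, was the most abundant, with levels of 100.19 and 117.88 in SmoM2, against 76.33 and 67.72 in WT. Efnb1 had nearly equal levels of 9.06 and 9.07 in SmoM2, against 4.93 and 6.10 in WT, a fold of 1.64. Efna3, a lipid-anchored ephrin, had 56.31 and 59.40 in SmoM2, against 38.08 and 43.48 in WT. In each of these genes the lower SmoM2 sample exceeded the higher WT sample. Without the GC trend the log2 differences were 0.15 ± 0.11 for Efnb3, 0.18 ± 0.16 for Efnb1 and 0.098 ± 0.10 for Efna3, each within 2 SE of 0. Efna2 did not pass, with 16.09 and 18.46 in SmoM2 and 11.25 and 13.05 in WT. Efna4, which lies 10.4 kb from Efna3 on chromosome 3, had the lowest levels of the 48 genes, at 1.18 and 1.13 in SmoM2 and 0.70 and 0.12 in WT. The authors' deposited table gives it the highest log2 fold change of the 48, 1.34, which did not pass, and its mean level was under the minimum of 1 used for the fit.

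Netrin and netrin-G ligands were higher throughout, with 4 of 6 genes in the table and 3 that rose. Ntng1 and Ntng2 encode netrin-G1 and netrin-G2, lipid-anchored proteins that bind the synaptic adhesion proteins Lrrc4c and Lrrc4 rather than Dcc. Ntng2 had levels of 71.78 and 63.03 in SmoM2, against 36.39 and 39.69 in WT. Ntng1 had 14.24 and 14.49 in SmoM2, against 8.99 and 7.68 in WT. Folds of 1.77 and 1.72 and log2 differences of 0.81 ± 0.11 and 0.72 ± 0.14 for Ntng2 and Ntng1 were close, but their transcripts differ in GC content, at 60.7% and 46.5%. Without the GC trend the difference of Ntng1 was 0.83 ± 0.15 and passed at an adjusted p of 0.0395 (limma), while that of Ntng2 was 0.30 ± 0.10 and did not. Lrrc4c, the partner of Ntng1, fell: its levels were 53.02 and 53.18 in SmoM2, against 61.88 and 71.79 in WT. Its log2 difference of -0.32 ± 0.11 was -0.11 ± 0.09 without the GC trend, where it did not pass. Ntn1, the secreted netrin that attracts axons through Dcc and repels them through Unc5 receptors, had 6.84 and 5.19 in SmoM2, against 3.55 and 3.05 in WT. Its adjusted p in the authors' deposited table was 0.00175, and Ntn3 missed the threshold there at 0.0506 with a log2 fold change of 0.56. Without the GC trend the log2 difference was 0.25 ± 0.20 for Ntn1 and -0.015 ± 0.17 for Ntn3, beside 0.70 ± 0.20 and 0.48 ± 0.18 with it.

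Of the remaining ligands, Rgma and Slit3 rose, Rtn4 fell, and Slit1 and Nell1 were higher without passing. Rgma, a lipid-anchored repellent, had levels of 63.85 and 59.35 in SmoM2, against 32.69 and 37.33 in WT. In the authors' deposited table its log2 fold change of 0.84 was the largest among ligands that passed (adjusted p = 9.65e-12), and its log2 difference without the GC trend was 0.29 ± 0.10. Slit3, a secreted repellent, had 10.04 and 11.51 in SmoM2, against 6.91 and 8.39 in WT. Its log2 difference of 0.45 ± 0.16 was 0.029 ± 0.15 without the GC trend, so little of it was left there. Slit1 had 19.97 and 23.75 in SmoM2 and 15.92 and 17.35 in WT. Nell1, a secreted relative of the Robo3 ligand Nell2, had 28.22 and 32.94 in SmoM2 and 22.81 and 22.97 in WT. Its transcript has 44.8% GC, and without the GC trend its log2 difference was 0.57 ± 0.12, beside 0.40 ± 0.12 with it.

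Rtn4 had the highest mean level of the 48 genes and fell, while its listed receptors were higher. Rtn4 had levels of 342.50 and 340.41 in SmoM2, against 425.88 and 500.25 in WT. Rtn4rl2, a homolog of the Nogo receptor that binds the myelin protein Mag, rose, with 99.37 and 96.15 in SmoM2, against 49.87 and 63.32 in WT. Rtn4r itself did not pass, with 77.91 and 88.51 in SmoM2 and 60.98 and 73.90 in WT. The fall of Rtn4 held its direction without the GC trend, at -0.30 ± 0.09, but the receptors did not: the difference became -0.11 ± 0.14 for Rtn4rl2 and -0.27 ± 0.12 for Rtn4r. Rtn4rl2 has the highest GC content of the 48 transcripts, at 68.5%. Mag and Omg, which encode other myelin ligands of Nogo receptors, fell too: Mag had 151.91 and 177.28 in SmoM2, against 288.08 and 264.73 in WT, and Omg had 92.03 and 95.42 in SmoM2, against 121.22 and 130.74 in WT. Oligodendrocytes express Rtn4, and all 11 markers of mature oligodendrocytes on the list fell, with summed levels of 3042 and 3428 in SmoM2, against 6349.7 and 5965 in WT. None of the 11 was at 0 in any sample, and the part of oligodendrocyte content in the fall of Rtn4 was not tested.

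**Figure D3:**
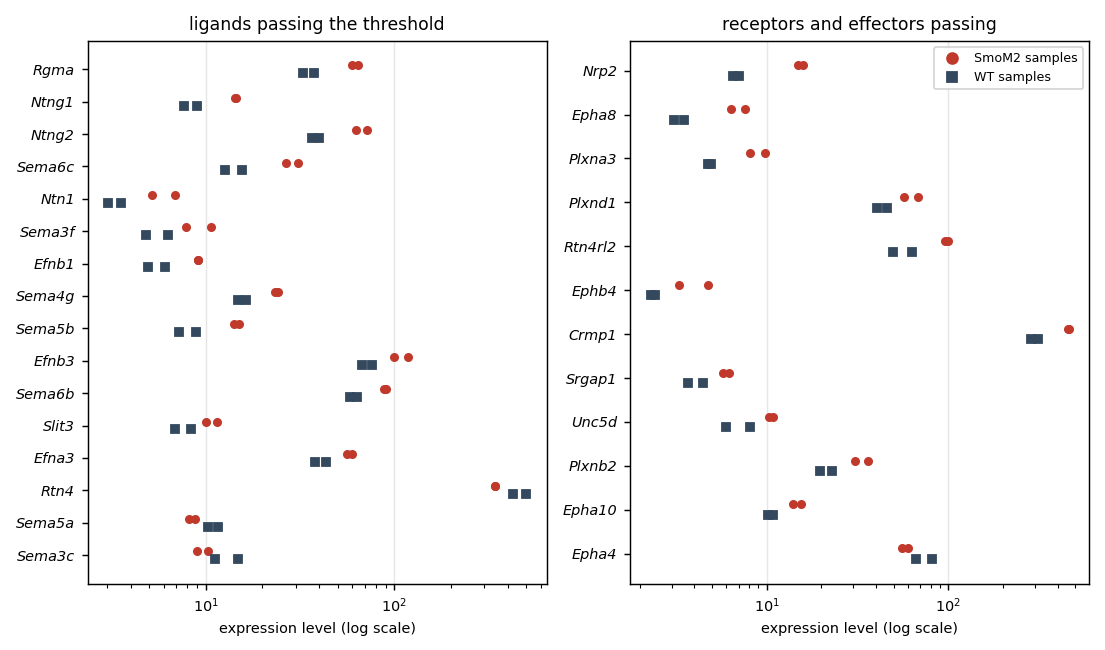
Expression levels (log scale) of the 28 axon guidance genes that passed are shown for each SmoM2 sample (red circles) and each WT sample (dark blue squares), ligands on the left, receptors and effectors on the right, each ordered by fold change from the top. In all 28 genes the groups are separate, and Rtn4, Sema5a, Sema3c and Epha4 are those with the SmoM2 samples to the left.

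Nrp2 had the largest change among genes that passed, and its ligand Sema3f and partner receptor Plxna3 rose as well. Nrp2 (chromosome 1, 62703285 to 62818695, GRCm38), the co-receptor of Sema3f, had levels of 14.82 and 15.89 in SmoM2, against 6.53 and 7.01 in WT. Mean levels (± SD, n = 2 each) were 15.4 ± 0.757 in SmoM2 and 6.77 ± 0.339 in WT, a fold of 2.27. Its adjusted p was 3.15e-18 in the authors' deposited table. Without the GC trend the log2 difference of Nrp2 was 0.91 ± 0.13, beside 1.07 ± 0.14 with it, and it passed at an adjusted p of 0.0241 (limma). Plxna3 (chromosome X, 74329066 to 74344689), the plexin that pairs with Nrp2 to read Sema3f, had levels of 9.76 and 8.07 in SmoM2, against 4.76 and 4.96 in WT. Sema3f, Nrp2 and Plxna3 were each higher in both SmoM2 samples, although without the GC trend Sema3f was at 0.18 ± 0.20 and Plxna3 at 0.39 ± 0.16.

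All 6 listed plexins of 9 were higher in SmoM2, and Plxna3, Plxnd1 and Plxnb2 rose. Plxnd1, the receptor of Sema3e, had levels of 56.89 and 68.16 in SmoM2, against 40.70 and 45.95 in WT. Plxnb2, a receptor of class 4 semaphorins, had 36.22 and 30.77 in SmoM2, against 19.62 and 22.95 in WT. Neither kept a difference of over 2 SE without the GC trend, at 0.0024 ± 0.12 for Plxnd1 and 0.20 ± 0.13 for Plxnb2. Plxna1, Plxnb1 and Plxnc1 did not pass, and the authors' deposited table gives them log2 fold changes between 0.31 and 0.33. The nearest to the threshold was Plxna1 (adjusted p = 0.0574 there), with 43.99 and 40.34 in SmoM2 and 26.07 and 32.03 in WT.

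Eph receptors were the most divided receptor family: of 8 listed genes of 14, Epha8, Ephb4 and Epha10 rose and Epha4 fell. Epha8, a receptor of the lipid-anchored ephrins, had levels of 6.38 and 7.61 in SmoM2, against 3.50 and 3.10 in WT, a fold of 2.12. Epha10, which lacks kinase activity, had 13.89 and 15.52 in SmoM2, against 10.20 and 10.82 in WT. Epha4, which binds ephrins of both classes and is the most abundant listed Eph receptor, had 55.30 and 60.10 in SmoM2, against 66.23 and 81.04 in WT. The adjusted p of Epha4 was 3.21e-04 in the authors' deposited table, and its log2 difference of -0.34 was -0.20 without WT replicate 2 and also -0.20 ± 0.11 without the GC trend. In limma on the levels Epha4 did not pass (adjusted p = 0.073). Epha8 was at 0.36 ± 0.18 without the GC trend, and Epha10 at -0.036 ± 0.12.

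Ephb4, the receptor of ephrin-B2 on venous endothelium, had levels of 4.73 and 3.30 in SmoM2, against 2.42 and 2.30 in WT. SmoM2 replicate 1 carried much of this: without it the log2 difference was 0.36, beside 0.56 ± 0.22 with all samples. Without the GC trend the difference was 0.11 ± 0.22, within its SE of 0. Endothelial markers moved both ways: of 8 on the list, 6 had a row, 3 rose and 2 fell. Among those that rose was the junction gene Cdh5, at 11.95 and 8.29 in SmoM2, against 5.58 and 6.62 in WT. The summed level of the 6 was 270.5 and 191 in SmoM2 and 261 and 219.8 in WT, Slco1a4 and Ly6c1 fell, no marker was at 0, and the part of endothelial content was not tested.

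Ephb6, a receptor without kinase activity, stood apart from the other genes of its base composition. It was lower in both SmoM2 samples, with levels of 56.60 and 48.88, against 57.16 and 65.59 in WT, and it did not pass (adjusted p = 0.104, from the authors' deposited table). Its transcript has 59.4% GC, and it was the axon guidance gene of the highest GC bin that was lower. Without the GC trend its log2 difference was -0.70 ± 0.12 and passed at an adjusted p of 0.0348 (limma), beside -0.22 ± 0.12 with the trend. As deposited, the difference was -0.11 without SmoM2 replicate 2 and -0.12 without WT replicate 2. Epha3 was the reverse, a gene of 41.9% GC that was higher in SmoM2, with 3.88 and 3.71, against 2.97 and 1.90 in WT. Its log2 difference of 0.50 ± 0.23 was 0.73 ± 0.25 without the trend, and it passed in neither setting nor in the authors' deposited table. Without WT replicate 2 the difference was 0.27. Epha7 was lower, with 23.91 and 25.91 in SmoM2 and 27.60 and 30.72 in WT, and Epha2, with mean levels of 1.36 in SmoM2 and 0.745 in WT, was higher; neither passed.

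The listed netrin receptors were Unc5a and Unc5d, both repulsive. Unc5d, which marks migrating cortical neurons and also binds Flrt2, rose, with levels of 10.28 and 10.88 in SmoM2, against 6.0 and 8.10 in WT. Its log2 difference was 0.54 ± 0.18, 0.35 without WT replicate 1, and 0.72 ± 0.16 without the GC trend, since its transcript has 44.3% GC. Unc5a did not pass, with 41.71 and 50.09 in SmoM2 and 33.75 and 35.45 in WT, and it was at -0.18 ± 0.12 without the GC trend.

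Both listed effectors rose. Crmp1, a cytosolic mediator of semaphorin signals to microtubules, was second in mean level to Rtn4 among the 48 genes, with 459.54 and 455.97 in SmoM2, against 285.93 and 310.67 in WT. Mean levels (± SD, n = 2 each) were 457.8 ± 2.52 in SmoM2 and 298 ± 17.5 in WT, and its log2 difference of 0.62 ± 0.09 was 0.22 ± 0.09 without the GC trend. Srgap1, a GTPase activator downstream of Robo receptors, had 5.78 and 6.22 in SmoM2, against 4.44 and 3.70 in WT, with log2 differences of 0.47 ± 0.18 and, without the GC trend, 0.42 ± 0.17.

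**Figure D4:**
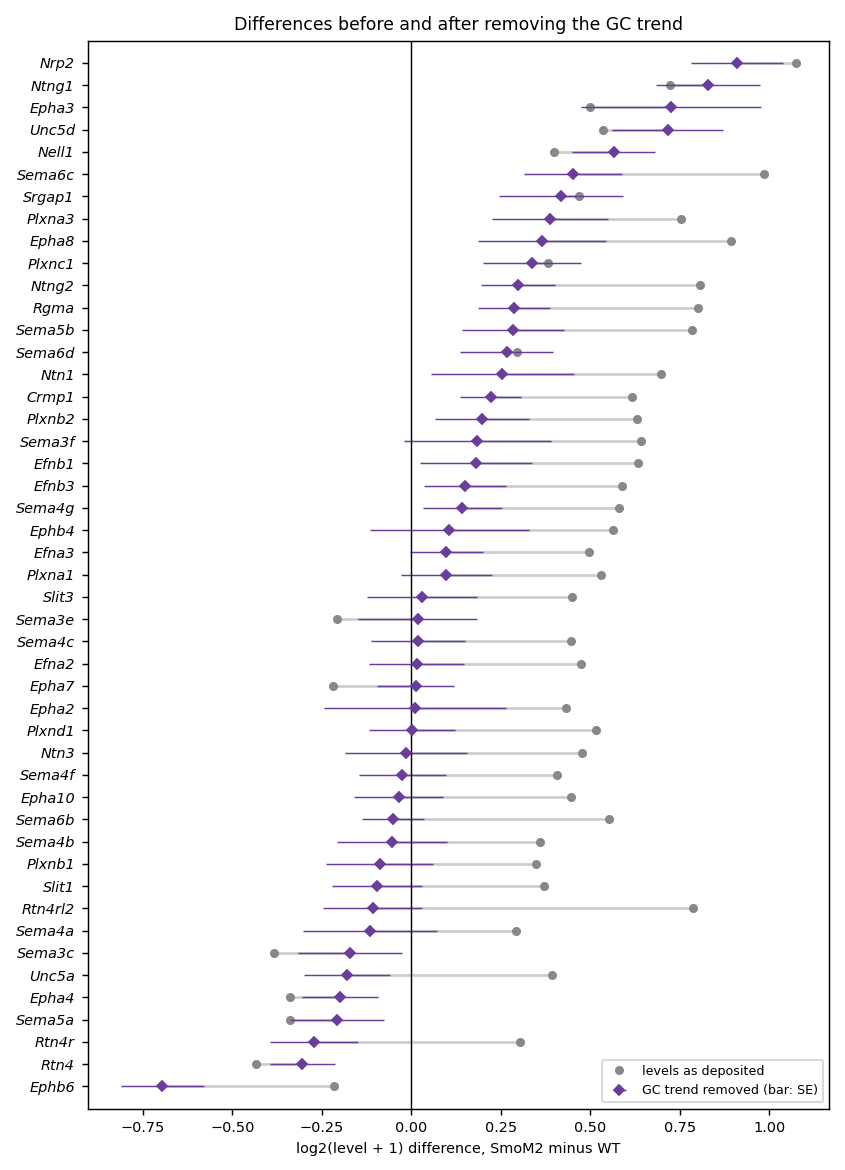
For 47 axon guidance genes the log2(level + 1) difference of SmoM2 minus WT is shown from the levels as deposited (grey circles) and after subtracting the GC trend in each sample (purple diamonds, bars are SE from limma). The median falls to 0.098, against 0.48 as deposited, and Nrp2, Ntng1, Epha3, Unc5d and Nell1 lie at the top while Ephb6 lies at the bottom.

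Other genes of guidance signalling moved both ways. Of 88 on a list of cytoskeletal effectors, adhesion co-receptors and further ligands, 46 had a row. Of these, 17 rose (37%, against 21.3% of all listed genes) and 12 fell (26.1%, against 16.0%). The authors' deposited table gives the 46 a median log2 fold change of 0.28, beside 0.23 over all listed genes. Dpysl3 and Dpysl5, relatives of Crmp1, were among the 3 largest rises: Dpysl3 had levels of 170.42 and 149.30 in SmoM2, against 74.35 and 70.09 in WT, and Dpysl5 had 128.83 and 122.29 in SmoM2, against 62.29 and 63.09 in WT. The other was Ngfr, a co-receptor of the Nogo receptor, with 3.05 and 4.20 in SmoM2, against 1.80 and 0.94 in WT. Largest among the falls without overlap were Mag, Ppp3r1, the regulatory subunit of calcineurin, and Chn1, a Rac inhibitor downstream of Epha4. Ppp3r1 had 418.78 and 454.95 in SmoM2, against 617.97 and 660.75 in WT, and Chn1 had 504.91 and 596.20 in SmoM2, against 728.49 and 813.11 in WT. Epha4 and its effector Chn1 thus both fell, while Neo1, the receptor of Rgma, had no row and was not analysed here. Without the GC trend the log2 difference was 1.03 for Dpysl3, 0.58 for Dpysl5 and -0.40 for Chn1, and the median of the 46 was -0.010.

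Markers of several cell types moved between the groups as well. Of all listed genes 53.2% were higher, 21.3% rose and 16.0% fell, and the counts below stand beside these shares. Smo, the gene of Smoothened, had levels of 10.73 and 10.96 in SmoM2, against 7.12 and 5.75 in WT. These levels do not tell the SmoM2 form from the unaltered one. The log2 difference of Smo was 0.68 ± 0.16, and 0.23 ± 0.16 without the GC trend. Markers of immature neurons and olfactory bulb interneurons, cells that use guidance receptors during migration, had 8 of 9 genes in the table. All 8 were higher and 6 rose, with summed levels of 1345 and 1338 in SmoM2, against 744 and 777 in WT. Most of each sum was Tubb3, at 1124.99 and 1166.72 in SmoM2, against 626.11 and 669.71 in WT. Sp8 overlapped, with 3.86 and 1.39 in SmoM2 and 1.76 and 1.49 in WT. Oligodendrocyte precursors, in which Pdgfra is active, had 6 of 9 markers in the table, all higher and 2 of which rose. Their sums were 216 and 199 in SmoM2, against 159 and 152 in WT. Without the GC trend the log2 difference was negative for Cspg4 (-0.065), Olig2 (-0.11) and C1ql1 (-0.16). It stayed positive for Cacng4 (0.036), Matn4 (0.24) and Ptprz1 (0.56). Mural cell markers had 4 of 6 in the table, all higher and 3 of which rose. Their sums were 134 and 112 in SmoM2, against 72.3 and 54.99 in WT. Pdgfrb overlapped and was at -0.054 without the GC trend, where the other mural markers stayed higher. Markers of leptomeningeal fibroblasts had 9 of 10 in the table and all 9 rose. Their sums were 1740 and 1814 in SmoM2, against 979 and 349.96 in WT. Most of each sum was Ptgds, at 1641.07 and 1727.5 in SmoM2, against 933.18 and 312.88 in WT. Col3a1 overlapped, with 14.49 and 6.97 in SmoM2 and 4.85 and 7.0 in WT. Choroid plexus markers were lower in all 7 and 5 fell, with sums of 77.6 and 631 in SmoM2, against 1224 and 1189 in WT. Most of each sum was Ttr, at 71.24 and 618.04 in SmoM2, against 1202.66 and 1162.48 in WT. All 5 blood markers fell. Of 5 general neuron markers, 2 had a row, Snap25 and Syt1, and both fell. Their sums were 1810 and 1830 in SmoM2, against 2056 and 2466 in WT. Without the GC trend the log2 difference was -0.047 for Snap25 and -0.067 for Syt1, beside -0.35 and -0.20 with it. Other lists were mixed: 2 markers higher and 2 lower for excitatory neurons, 3 and 2 for inhibitory neurons. Astrocyte markers were 2 higher and 2 lower, and microglial markers 3 higher and 1 lower. No marker with a row was at 0 in any sample, and the part of any of these cell types in the changes of guidance genes was not tested.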

How the data were processed

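RNA was measured in 2 SmoM2 and 2 WT samples; TruSeq libraries were made from total RNA, per the labels' protocols. Per the submitters' processing notes, RSEM, DESeq2 and the GRCm38.p6 build were used, with no version or role given. The authors' deposited table gives a signal per gene and sample, an expression level that looks normalized to transcript length and sequencing depth. The authors' deposited ratio of SmoM2 over WT, its log2, its p-value and its adjusted p-value stand beside it. The series text names the column of each sample. The table holds no counts, so depth is unknown; listed levels summed to between 469062 and 512833 per sample. The highest deposited p is 0.049997.

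Calls are the authors' adjusted p of at most 0.05. Differences and SE came from limma 3.58.1 in R 4.3.3, with a mean-variance trend, on log2(level + 1), for 4845 genes whose mean level reached 1 (47 of the 48); this scale understates changes of low genes. GC content was that of the longest GENCODE M21 transcript, found for 5226 of 5282 identifiers, and its trend was removed by loess with a span of 0.5. A simulation of SmoM2 against WT tested the fit on 4845 genes: 50.0% of genes changed by 0.5 and 100% of those changed by 1 were recovered. It gave every gene independent noise of the same SD, 0.15, with 200 changed genes and no GC trend. The data differ from these settings, so the rates are a check of the fit and not its power here. Members and lists, the rule for named genes included, were chosen with earlier results of these data known. That rule gave values for members that passed, by family, and for their partners. Cdh5, Neo1, Omg, Lrrc4c and some genes that did not pass were named after their values were seen. Alternatives were pseudocounts of 0.1 and 5, scaling, filters, other call rules, a replicate block and leaving out each sample.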

Additional observations from a re-analysis of the deposited data

How the results depend on the processing

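The authors' calls cannot be recomputed from levels, so alternatives on the levels show how many kept their direction. All 24 rises and 4 falls did, as did all 47 fitted genes, with quantile normalization and with equal medians. The same held with pseudocounts of 0.1 and 5 and with any sample left out, but there the direction was fixed in advance. Where groups do not overlap, as in all of these genes but Sema4a, neither step can turn the direction. A minimum mean level of 5 left 22 rises and 4 falls. The median of all fitted genes, 0.25, was 0.12 with quantile normalization and 0.15 with equal medians. With the threshold on the authors' deposited adjusted p set to 0.01 there were 17 rises and 3 falls. The share of all listed genes at 0.01 is not given here, so these counts cannot be set beside the whole. With limma adjusted over the 57010 tests that the authors' adjusted p implies, 0 passed as higher and 0 as lower, where 6 of all 4845 fitted genes passed. An unadjusted limma p under 0.05 was found in 35 of the 47, beside 2687 of the 4845, in a table already selected by p. Adjusted over the 4845 genes fitted, 22 passed as higher and 1 as lower, where 33.4% of all fitted genes passed. Of these 22, 19 are among the authors' 24, and Efna2, Nell1 and Plxna1 are not. With a replicate block 17 passed as higher and 1 as lower, where 1053 of all 4845 fitted genes passed. The replicate numbers share only a number, with a correlation of -0.093 between the deviations of same-numbered samples. The median log2 difference of 0.48 ran from 0.43 to 0.52 with a sample left out and moved to 0.098 without the GC trend, where 21 of the 24 rises and all 4 falls kept their direction. That setting reversed 13 genes: Epha10 to -0.036, Epha7 to 0.012, Ntn3 to -0.015, Plxnb1 to -0.089, Rtn4r to -0.27, Rtn4rl2 to -0.11, Sema3e to 0.018, Sema4a to -0.12, Sema4b to -0.054, Sema4f to -0.025, Sema6b to -0.052, Slit1 to -0.097 and Unc5a to -0.18. The cause was not tested. Without WT replicate 1 the difference of Sema4a was 0.015, beside 0.29. Depth is unknown, so no limit from counting can be given.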

Other observations

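Fold changes in the authors' deposited table and ratios of the deposited levels differed for some axon guidance genes. Over all listed genes the log2 ratio of mean levels minus the log2 fold change in the authors' deposited table had a median of 0.076, and lay between -0.11 and 0.29 from the 5th to the 95th percentile. Plxnd1 was below that range, at -0.28: its log2 value was 0.81 in the authors' deposited table and 0.53 from its levels. Rtn4 was also below it, at -0.14, with -0.30 in the authors' deposited table and -0.44 from its levels. At the other end, Sema6c, Sema5b, Plxna1 and Plxnb2 had gaps between 0.22 and 0.27, within the range. The cause was not tested.

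Efna3, Efna4 and Sema4a lie within 1 Mb of each other on chromosome 3, and all had a fold change above 1 in the authors' deposited table. No other pair of the 48 genes lies that close.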
